A study of Mus musculus with 6 samples.

Results

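The genes described here are 10 factors of the axial mesendoderm and the head organizer, read in heads of mouse embryos that carry an insertion allele of Prdm15. They were chosen by symbol: the transcription factors Gsc and Lhx1, the secreted antagonists Chrd, Nog, Cer1 and Dkk1, and the Nodal pathway genes Nodal, Tdgf1, Lefty1 and Lefty2. Each of the 10 symbols has 1 row among the 24062 gene symbols of the deposited files, and all 10 passed the filter on low counts, which left 15187 genes for testing.

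The axial mesendoderm is the midline tissue under the neural plate, formed by the prechordal plate in front and the notochord behind, and the prechordal plate keeps the overlying neural plate in a forebrain state. Nodal, a ligand of the TGF-beta family, acts through activin receptors and the co-receptor encoded by Tdgf1, and its signal is passed on by Smad2, Smad3 and Foxh1. Lefty1 and Lefty2 are targets of that signal and inhibit it. Chrd and Nog bind BMP ligands, Dkk1 blocks the Wnt co-receptors, and Cer1 can bind Nodal, BMP and Wnt ligands. Loss of several of these genes is tied to holoprosencephaly, an incomplete division of the forebrain. Around the stage studied, Nodal and the Lefty genes are also known from the node, the left lateral plate mesoderm and the midline, and Tdgf1 from the heart.

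The sequenced material was poly(A) RNA of whole heads dissected at embryonic day 8.5, and all embryos were C57BL/6. There were 3 genotypes with 2 libraries each: wild type (Prdm15 tm1a+/+), heterozygous (Prdm15 tm1a+/-) and mutant (Prdm15 tm1a-/-). Alleles named tm1a are usually knockout-first insertions present in all cells of the animal. The labels name neither litters nor batches and do not say which libraries are separate embryos, so a p-value reflects only how far these libraries lay apart, which may be technical. Levels are given as RPKM (reads scaled to gene length and library size), the authors' values, which can be compared between genes, or as CPM (counts scaled to library size alone), and differences as log2 fold changes with their standard error (SE). A change passed when the Benjamini-Hochberg adjusted p of edgeR's quasi-likelihood test, taken over all 15187 genes, was under 0.05.

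The libraries held 29412227 to 40439234 reads assigned to genes, so that 3 reads in 1 library equal 0.0742 to 0.102 CPM. For 2 libraries, wild-type replicate 2 and mutant replicate 1, the attached count file carries the other's title in its name. By title, every file had its zeros at exactly the genes at 0 in the RPKM column of the same title, whereas those 2 files as attached differed from the column of their sample in 1646 genes. All values below follow the titles. Under the attachment instead of the title, 0 of the 10 genes passed edgeR's quasi-likelihood test in each of the 3 comparisons, 0 had an unadjusted p under 0.05, and 0 of all tested genes passed (318, 48 and 422 at that unadjusted level). Prdm15 did not pass in mutant against wild type (log2 fold change -0.21, SE 0.12, adjusted p = 0.221); whole-gene counts do not separate normal from trapped transcripts, so they do not check the genotype. Otx2, the homeobox gene named in the series title, fell in mutant heads (-1.53, SE 0.25, adjusted p = 0.00964).

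Markers of the labelled tissue were present. All 15 genes of an anterior neural plate list had more than 3 reads in every library, except Rax with 3 reads in mutant replicate 2, and the list summed to 884 to 993 CPM in wild-type, 714 to 767 in heterozygous and 437 to 441 in mutant libraries. Markers of other tissues moved with genotype. A list of 16 yolk sac visceral endoderm genes summed to 9.08 and 17.0 CPM in wild-type, 2024 and 2805 in heterozygous and 4429 and 5245 in mutant libraries; Spp2 was at 0 in both wild-type libraries and Apoa4 in wild-type replicate 1. A list of 14 heart genes summed to 53.1 and 228 CPM in wild-type, 1739 and 2783 in heterozygous and 1104 and 1932 in mutant libraries, with Nppa at 0 in wild-type replicate 2 and mutant replicate 2. A list of 17 trunk and tailbud genes summed to 19.5 and 52.6, 76.1 and 84.7, and 126 and 342 CPM in the same order of genotypes. A list of 11 lateral plate and intermediate mesoderm genes summed to 173 and 210, 323 and 282, and 526 and 419 CPM in that order, with none at 0. Of the trunk list, Msgn1 was at 0 in wild-type replicate 2 and in both heterozygous libraries, Hoxa7 and Hoxa9 in both heterozygous libraries, Cdx4 in heterozygous replicate 1 and Hoxc8 in wild-type replicate 2. In mutant against wild type 14 of 15 anterior neural plate genes fell, and 1 lateral plate list gene, Pax8, fell too. In that comparison 16 of 16 yolk sac, 12 of 13 tested heart, 8 of 15 tested trunk and 4 of 11 lateral plate genes rose. In heterozygous against wild type 16, 11, 1 and 3 genes of those last 4 lists rose. Of all tested genes 17.1% rose and 13.6% fell in the first comparison, and 6.03% rose in the second. In whole heads, fewer cells of a type and less RNA per cell cannot be told apart, and the part of these tissues in the results below was not tested.

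**Figure D1:**
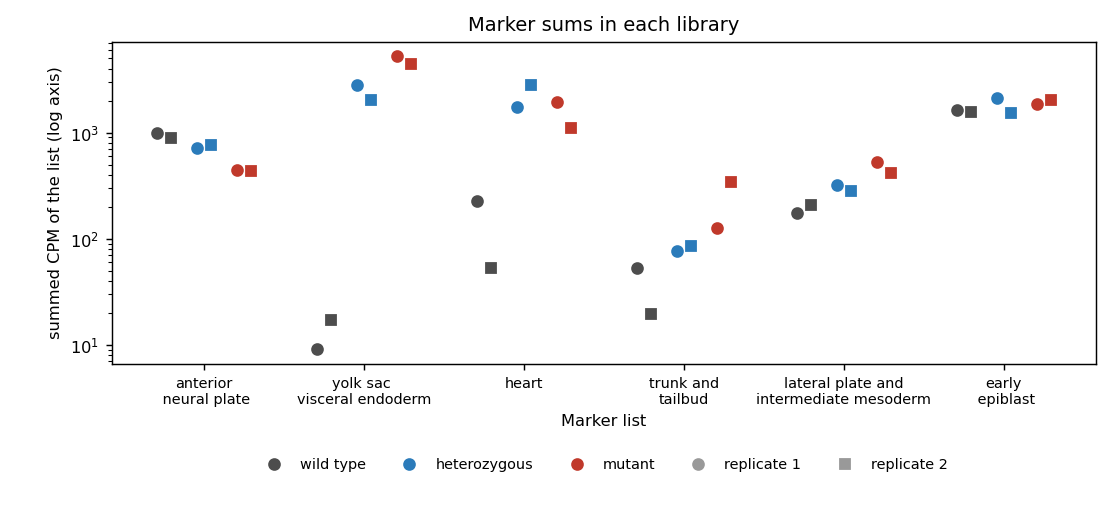
Summed CPM (log axis) of 6 marker lists in each library; colour gives the genotype and the symbol the replicate. The yolk sac visceral endoderm list is at 9.08 and 17.0 CPM in wild-type libraries and at 2024 CPM or more in the other 4, while the anterior neural plate list is lowest in the mutant libraries.

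The 10 genes fell into 3 sets by how they stood in the 6 libraries. Dkk1, Nog, Chrd and Gsc were expressed in every library, with mutant to wild-type ratios of summed reads between 0.643 and 2.07. Lhx1 was low in wild-type, intermediate in heterozygous and high in mutant heads. Nodal, Lefty1 and Lefty2 were at or near 0 reads in wild-type heads and present in both mutant heads, and among heterozygous heads they were high in 1 library and low in the other. Placed with them, Cer1 shared the gap between the heterozygous libraries, and Tdgf1 was lowest in wild-type libraries but lacked that gap. In mutant against wild type 2 of 10 genes rose, Lhx1 and Lefty2, where 30.6% of all tested genes passed, 17.1% higher and 13.6% lower. None of the 10 fell in that test, with 0 of 10 lower at an unadjusted p under 0.05, and 7 of 10 were higher at that level, where 6654 of all 15187 tested genes lay under it in either direction. The mutant and wild-type libraries did not overlap for 8 of 10 genes, all higher in mutants, against 71% of all tested genes, of which 34.9% were higher and 36.1% lower. With 0 to 3 wild-type reads, Nodal, Lefty1 and Lefty2 passed the filter only through the heterozygous and mutant libraries. They could not have come out lower than wild type, so their direction in these counts was fixed in advance. The median log2 fold change of the 10 was 3.03, and that of all tested genes -0.02. The count of 2 became 1 without wild-type replicate 2 or without mutant replicate 2, 3 without wild-type replicate 1, and 4 without either heterozygous library. Scaled instead to 15 neural progenitor genes, which lifted the median of all genes by 0.66, 8 of the 10 rose (all but Gsc and Dkk1), and all tested genes gave 10554 higher and 436 lower calls in place of 2594 and 2060.

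**Figure D2:**
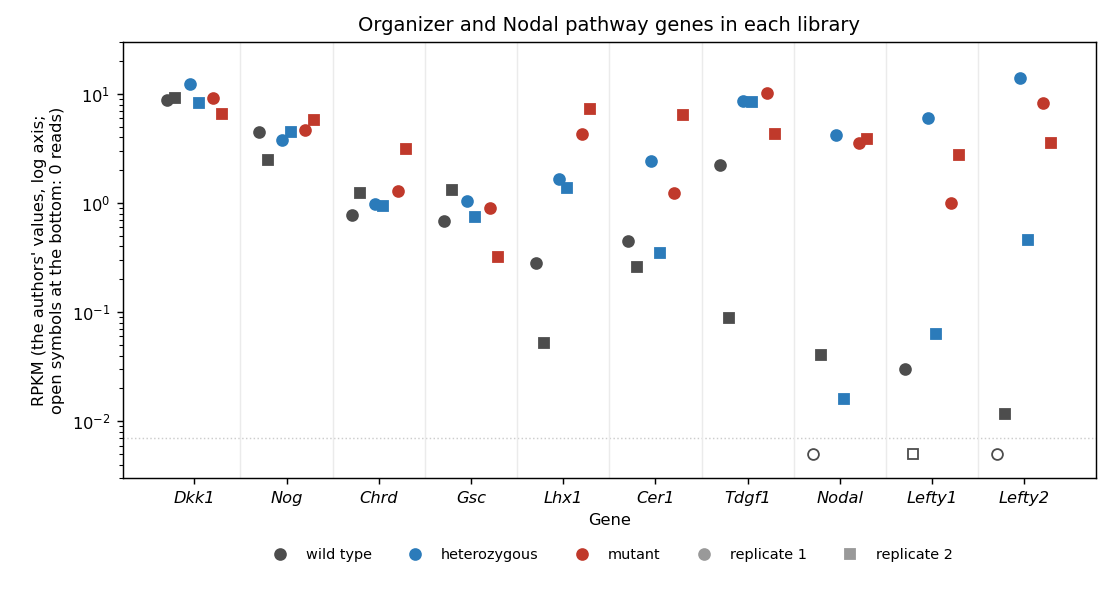
RPKM of the 10 genes in each library on a log axis, with open symbols for libraries at 0 reads; colour gives the genotype and the symbol the replicate. Dkk1 lies between 6.55 and 12.3 RPKM in all 6 libraries, whereas Nodal, Lefty1 and Lefty2 span from 0 to several RPKM and part the 2 heterozygous libraries.

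**Figure D3:**
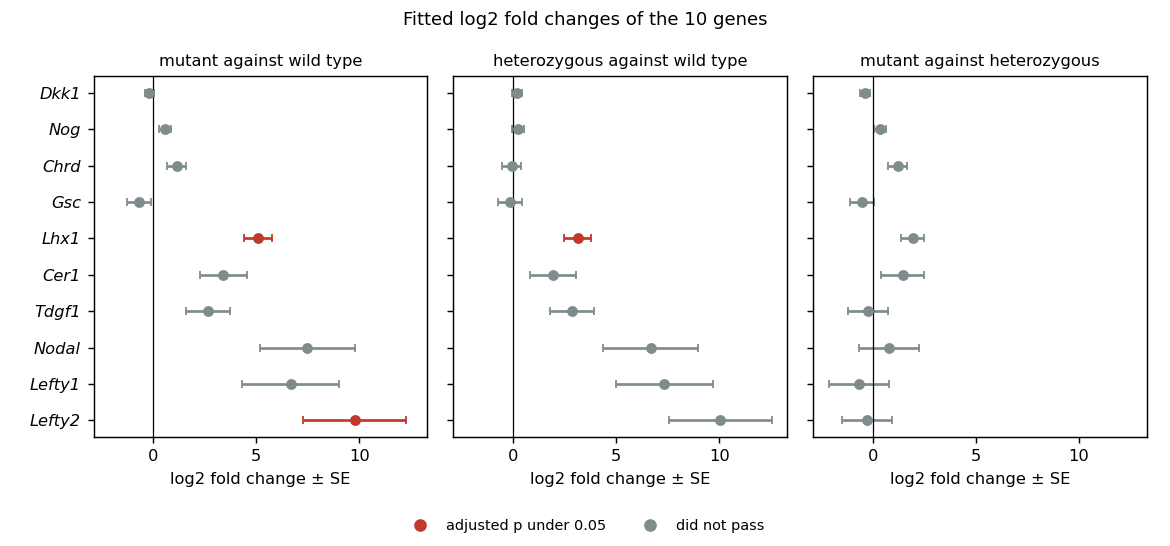
Fitted log2 fold changes with standard errors for the 3 comparisons, red where the adjusted p was under 0.05. Lhx1 and Lefty2 pass in mutant against wild type and Lhx1 in heterozygous against wild type, and the bars of Nodal, Lefty1 and Lefty2 are the widest.

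Lhx1 (chromosome 11, 84518284 to 84525535, minus strand, GRCm38) encodes a LIM homeodomain factor that the anterior visceral endoderm and prechordal plate need for head formation. It was at 0.282 and 0.0518 RPKM in wild-type replicates 1 and 2, at 1.68 and 1.36 in the heterozygous libraries and at 4.32 and 7.32 in the mutant libraries. The 3 genotypes did not overlap, and the levels stood in the order of allele number. The yolk sac, trunk and tailbud, and lateral plate and intermediate mesoderm sums given above stood in that order too. The heart sums did not, and the anterior neural plate sums ran the other way. The part of these tissues in the Lhx1 values was not tested. In mutant against wild type Lhx1 rose by 5.08 on the log2 scale (SE 0.67, adjusted p = 0.0050), and in heterozygous against wild type by 3.14 (SE 0.65, adjusted p = 0.0477). Between mutant and heterozygous libraries its log2 fold change of 1.94 (SE 0.56) had an adjusted p of 0.142. Summed reads were 1040 in mutant and 37 in wild-type libraries, a ratio per library total of 30.8 (exact 95% interval of counting error 22.2 to 44.0). The mutant call stood without any single library (adjusted p = 0.00406 to 0.0242), though the value was 6.79 without wild-type replicate 1 and 4.35 without wild-type replicate 2. The same omissions gave 4.84 and 2.42 in heterozygotes. The heterozygous call was lost without either heterozygous library or without either mutant library (adjusted p = 0.0829 to 0.194).

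Gsc (chromosome 12, 104471209 to 104473330, minus strand), a homeobox gene of the organizer and the prechordal plate, ranked 5 of the 10 by mean RPKM in wild-type heads. By the same mean it was the lowest of the set in heterozygous and in mutant heads, though in neither heterozygous library by itself. In heterozygous replicate 1 Chrd (0.985 RPKM) lay below it. In replicate 2 Nodal (0.0160), Lefty1 (0.0626), Cer1 (0.346) and Lefty2 (0.462) lay below Gsc. Its reads numbered 33 and 54 in wild-type, 38 and 26 in heterozygous and 40 and 11 in mutant libraries, which is 0.682 and 1.31, 1.04 and 0.741, and 0.901 and 0.319 RPKM. The genotypes overlapped, and the lowest library was mutant replicate 2. The mutant minus wild-type value on the log2 scale was -0.67, with SE 0.59 and adjusted p = 0.423. It turned to 0.0076 under the neural progenitor scaling and did not pass. The other 2 comparisons gave -0.15 (SE 0.58) and -0.52 (SE 0.59). Gsc and Lhx1, 2 transcription factors of the same midline tissue, thus had fitted mutant differences of opposite sign; the difference between the genes was not tested.

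Among the BMP antagonists, Chrd (chromosome 16, 20733127 to 20742384, plus strand) was at 0.777 and 1.23 RPKM in wild-type, 0.985 and 0.932 in heterozygous and 1.29 and 3.16 in mutant libraries. The mutant libraries lay above the other 4, and mutant replicate 2 stood 2.53 times above replicate 1 in reads per total (exact 95% interval 2.08 to 3.07). Mutant libraries exceeded wild-type ones by 1.15 on the log2 scale (SE 0.45, adjusted p = 0.105) and heterozygous ones by 1.21 (SE 0.46, adjusted p = 0.209), and neither value passed. Without mutant replicate 1 the first value was 1.67 and passed (adjusted p = 0.0375). Chrd overlaps Thpo on the opposite strand, and the strand setting of the counting is not given in the sources used here. Thpo rose by 1.91 (SE 0.30, adjusted p = 0.00791). Whether reads of the shared stretch touched the Chrd counts cannot be told. Acvr2a, Bmp4 and Bmp6, described below among list genes, likewise overlap the protein-coding genes Orc4, Gm15217 and Txndc5. Trunk and tailbud sums were 126 CPM in mutant replicate 1 and 342 in replicate 2.

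Nog (chromosome 11, 89300638 to 89302332, minus strand), a second BMP antagonist, of the notochord and dorsal neural tube, was at 4.46 and 2.49 RPKM in wild-type, 3.81 and 4.48 in heterozygous and 4.64 and 5.79 in mutant libraries. The mutant values lay above the others by little, and wild-type replicate 2 was the lowest. Over wild type, the log2 value was 0.59 for mutants (SE 0.29, adjusted p = 0.178) and 0.25 for heterozygotes (SE 0.29), and mutants over heterozygotes gave 0.34 (SE 0.29). Without wild-type replicate 1 the mutant value was 1.09 and passed (adjusted p = 0.0387).

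Dkk1 (chromosome 19, 30545863 to 30549665, minus strand), the Wnt antagonist whose loss removes the anterior head, was the most abundant gene of the set per length in every genotype by mean RPKM. By single library it ranked first in the wild-type libraries only. Lefty2 (14.0 RPKM) lay above it in heterozygous replicate 1 and Lhx1 (7.32) in mutant replicate 2. Tdgf1 lay above it in heterozygous replicate 2 (8.41) and mutant replicate 1 (10.3). Dkk1 was at 8.71 and 9.18 RPKM in wild-type, 12.3 and 8.22 in heterozygous and 9.21 and 6.55 in mutant libraries. The highest and the lowest library were heterozygous replicate 1 and mutant replicate 2, and the genotypes overlapped. None of its fitted log2 differences passed. Over wild type they were -0.17 for mutants (SE 0.24, adjusted p = 0.615) and 0.20 for heterozygotes (SE 0.23, adjusted p = 0.648), and mutants over heterozygotes gave -0.37 (SE 0.24, adjusted p = 0.414). Under the neural progenitor scaling the first turned to 0.50 and the last to 0.05, and neither passed.

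Cer1 (chromosome 4, 82881751 to 82885148, minus strand), a multi-ligand antagonist of the anterior endoderm and mesendoderm, was at 0.446 and 0.262 RPKM in wild-type, 2.43 and 0.346 in heterozygous and 1.23 and 6.41 in mutant libraries. Both mutant libraries lay above both wild-type ones, and heterozygous replicate 1 lay between the 2 mutant values while replicate 2 was at the wild-type level. The fitted log2 fold change of mutant against wild type was 3.42 (SE 1.15, adjusted p = 0.0715) and did not pass. In reads the ratio of the 2 genotypes was 9.34 (exact 95% interval 6.92 to 12.9, counting error only). The same ratio within the mutant pair, replicate 2 over replicate 1, was 5.38 (interval 4.21 to 6.95).

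Nodal (chromosome 10, 61417972 to 61425338, plus strand) had 0 and 3 reads in wild-type, 275 and 1 in heterozygous and 279 and 236 in mutant libraries. In RPKM this was 0 and 0.0408, 4.24 and 0.0160, and 3.52 and 3.84. Both mutant heads and heterozygous replicate 1 expressed the ligand at a like level, and the other 3 libraries were at or under 3 reads. Summed over the pairs, the mutant to wild-type ratio was 188 (exact 95% interval 64.1 to 916). The fitted log2 fold change of 7.48 (SE 2.29) had an adjusted p of 0.0557 and did not pass with all 6 libraries in the fit. It passed without heterozygous replicate 1 (adjusted p = 0.00681), without heterozygous replicate 2 (0.0062) and, in a fit added after the spread of the heterozygous pair was seen, with mutant and wild-type libraries only (0.00647).

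Lefty2 (chromosome 1, 180893108 to 180899103, plus strand), the Nodal inhibitor of the left lateral plate mesoderm, had 0 and 1 reads in wild-type, 1070 and 34 in heterozygous and 773 and 257 in mutant libraries. In RPKM this was 0 and 0.0116, 14.0 and 0.462, and 8.31 and 3.56. The wild-type libraries lay below all others, and the highest library was heterozygous replicate 1, not a mutant. Lefty2 rose in mutant against wild type (fitted log2 fold change 9.78, SE 2.50, adjusted p = 0.0332); in reads the ratio was 1129 (exact 95% interval 202 to 44655), wide because it rests on 1 wild-type read. The call was lost without wild-type replicate 1 (8.85, adjusted p = 0.145), wild-type replicate 2 (11.95, 0.112), mutant replicate 1 (9.03, 0.0927) or mutant replicate 2 (10.26, 0.0669). In heterozygous against wild type the fitted value of 10.05 (SE 2.49) had an adjusted p of 0.0776.

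Lefty1 (chromosome 1, 180935022 to 180938400, plus strand), the Nodal inhibitor of the midline and floor plate, had 2 and 0 reads in wild-type, 296 and 3 in heterozygous and 61 and 131 in mutant libraries, or 0.0303 and 0, 5.95 and 0.0626, and 1.01 and 2.78 RPKM. Heterozygous replicate 1 was again the highest, and replicate 2 was close to wild type. The mutant to wild-type ratio in reads was 105 (exact 95% interval 28.7 to 876), and the fitted log2 fold change of 6.68 (SE 2.35) had an adjusted p of 0.0801. It passed without heterozygous replicate 1 (0.0153), without heterozygous replicate 2 (0.0144) and with mutant and wild-type libraries only (0.0146). The 2 Lefty genes are near copies: of the distinct 50-base words in Lefty1 transcripts of GENCODE M21, 17.9% also occur in Lefty2 transcripts; how many reads this touched was not measured. In both mutant heads Lefty2 was above Lefty1 per length. Between those heads, Lefty2 was higher in replicate 1 than in replicate 2 (ratio 2.26, exact 95% interval 1.96 to 2.62), and Lefty1 was higher in replicate 2 than in replicate 1 (ratio 2.85, interval 2.09 to 3.93).

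Tdgf1 (chromosome 9, 110939603 to 110946158, minus strand), which encodes the Nodal co-receptor Cripto, was at 2.22 and 0.0887 RPKM in wild-type, 8.66 and 8.41 in heterozygous and 10.3 and 4.29 in mutant libraries. The wild-type libraries were the lowest and parted from each other by more than either other pair, with 176 and 6 reads (ratio 25.1, exact 95% interval 11.3 to 69.4). On the log2 scale it exceeded wild type by 2.65 in mutants (SE 1.07, adjusted p = 0.113) and by 2.87 in heterozygotes (SE 1.08, adjusted p = 0.183). Without wild-type replicate 1 both passed, at 6.36 (adjusted p = 0.0113) and 6.56 (adjusted p = 0.0218). The heart list, summed in the same library order, stood at 228 and 53.1, 1739 and 2783, and 1932 and 1104 CPM; its part in the Tdgf1 values was not tested. Of the 50-base words of Tdgf1 transcripts 8.86% are shared with the pseudogene Tdgf1-ps1.

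The largest gaps between the 2 heterozygous heads among the 10 genes were those of Nodal, Lefty1, Lefty2 and Cer1. The log2 CPM of replicate 1 minus that of replicate 2 was 6.59 for Nodal, which ranked 1 from the top among the 15187 tested genes, 5.91 for Lefty1, which ranked 2, 4.85 for Lefty2, which ranked 3, and 2.69 for Cer1, which ranked 11. In reads per library total the ratios were 260 (exact 95% interval 46.3 to 10319), 93.4 (31.7 to 456), 29.8 (21.2 to 43.2) and 6.89 (4.19 to 12.0) in the same order. The other 6 genes differed little in this pair: Tdgf1 by 0.04, Chrd by 0.07, Nog by -0.23, Lhx1 by 0.29, Gsc by 0.46 and Dkk1 by 0.57. By size in either direction the same 4 genes ranked 1, 3, 6 and 58. These ranks describe 2 libraries of 1 genotype and carry no test. Yolk sac sums of the pair were 2805 and 2024 CPM, heart sums 1739 and 2783, and trunk sums 76.1 and 84.7. Lateral plate and intermediate mesoderm sums were 323 and 282 CPM, and sums of the early epiblast list 2100 and 1521. The part of these tissues in the gaps of the 4 genes was not tested.

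**Figure D4:**
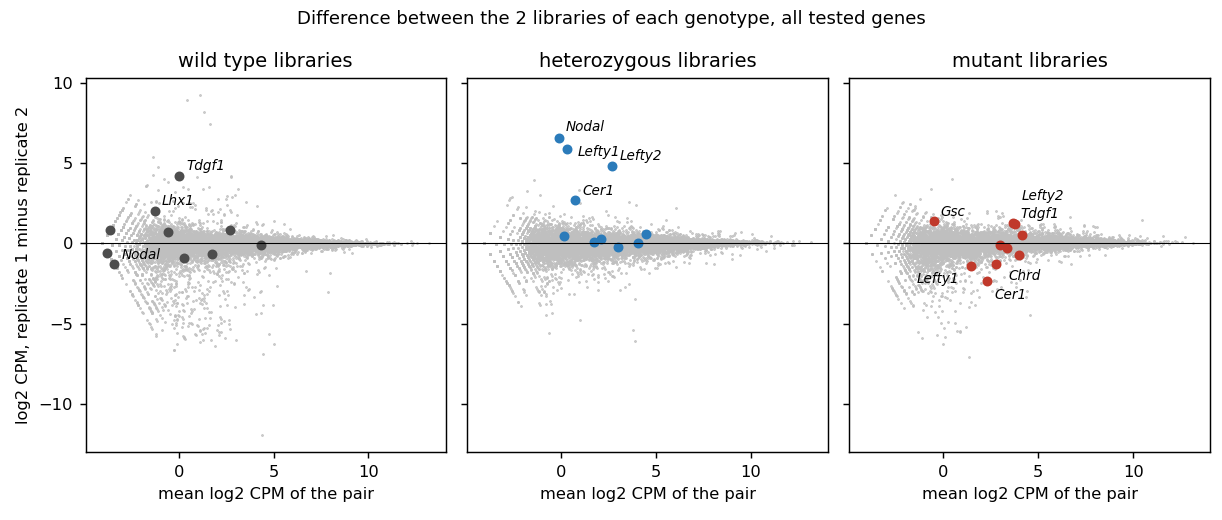
Difference in log2 CPM between the 2 libraries of each genotype (replicate 1 minus replicate 2) against their mean, for all 15187 tested genes in grey and the 10 genes in colour, named where they differ by more than 1. In the heterozygous panel Nodal (6.59), Lefty1 (5.91) and Lefty2 (4.85) have the 3 highest values of all tested genes, though some genes differ by more than Lefty1 or Lefty2 in the other direction.

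In the other pairs the set behaved differently. Between the wild-type heads Tdgf1 differed most of the 10, by 4.23, and between the mutant heads Cer1 did, by -2.34, with Nodal at -0.11. The mutant pair also parted Lefty1 (-1.43), Gsc (1.37), Chrd (-1.27), Tdgf1 (1.26) and Lefty2 (1.23): mutant replicate 2 held more Cer1, Lefty1 and Chrd, and replicate 1 more Gsc, Tdgf1 and Lefty2.

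Heterozygous and wild-type heads were compared next. Of the 10 genes 1, Lhx1, rose, and none fell, where 6.56% of all tested genes passed, 6.03% higher and 0.533% lower. The quasi-likelihood test in edgeR gave 0 lower calls, with 0 lower and 5 higher at an unadjusted p under 0.05, where 3598 of all 15187 tested genes lay in either direction. The count was 0 without heterozygous replicate 1 or either mutant library, 2 without wild-type replicate 1 and 3 without heterozygous replicate 2 (Nodal, Lefty1 and Lefty2). The pairs did not overlap for Lhx1, Tdgf1, Lefty1 and Lefty2, each higher in heterozygotes, which is 4 of 10 against 28.7% of all tested genes; in either direction 56.2% did not overlap, with 27.6% lower. Here too Nodal, Lefty1 and Lefty2 could not have come out lower than wild type. Between mutant and heterozygous heads 0 of 10 passed in edgeR's quasi-likelihood test, where 0.435% of all tested genes passed, 0.0724% higher and 0.362% lower; 2, Chrd and Lhx1, were under an unadjusted p of 0.05, a share near that of all tested genes (3228 of 15187). DESeq2 and edgeR's likelihood ratio test passed 1 there, Lhx1, and limma-voom 0. Chrd, Nog and Lhx1 were higher in both mutant than in both heterozygous libraries, 3 of 10 against 27.6% of all tested genes (54% in either direction, 26.4% lower). The comparisons share libraries and are not independent of each other.

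For 6 of the 10 genes the authors' deposited table gives a false discovery rate under 0.05 in mutant against wild type, where 14.3% of its 24062 genes do. They are Lhx1 (log2 fold change 5.08, rate 7.17e-17), Lefty2 (9.75, 1.69e-10), Nodal (7.43, 3.03e-05), Lefty1 (6.70, 0.000123), Cer1 (3.42, 0.00133) and Tdgf1 (2.65, 0.0116), all from the authors' deposited table. That table holds a likelihood ratio score, a test that takes less account of the uncertainty of the spread than the quasi-likelihood test used here.

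By length-scaled level the order of the set changed with genotype. In wild-type heads mean RPKM was highest for Dkk1 (8.94), then Nog (3.47), Tdgf1 (1.15), Chrd (1.00), Gsc (0.996), Cer1 (0.354), Lhx1 (0.167), Nodal (0.0204), Lefty1 (0.0151) and Lefty2 (0.00579). The ranges of Tdgf1, Chrd and Gsc overlapped, as did those of Cer1 and Lhx1 and those of the last 3. In mutant heads Dkk1 (7.88) was followed by Tdgf1 (7.29), Lefty2 (5.93), Lhx1 (5.82), Nog (5.21), Cer1 (3.82), Nodal (3.68), Chrd (2.22), Lefty1 (1.89) and Gsc (0.610), and the ranges of most neighbours overlapped. In heterozygous heads the means of Lefty2 (7.25), Lefty1 (3.01), Nodal (2.13) and Cer1 (1.39) each average 1 high and 1 low library.

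Genes with the most similar course over the 6 libraries were sought for the 9 members with a mean of at least 1 CPM. Likeness was the root mean square difference of mean-centred log2 CPM, where 0 would be the same course. Nodal and Lefty1 were nearest to each other (1.11), and Lefty2 was the second nearest to Nodal (1.48). Cer1 was nearest to Wnt8a (0.55), a Wnt ligand gene of the primitive streak, and to Pou5f1 (0.62), the pluripotency factor. Wnt8a stood at 2.44 and 3.33 CPM in wild-type libraries, 29.1 and 4.79 in heterozygous and 19.9 and 44.6 in mutant libraries, and Pou5f1 at 3.73 and 3.01, 35.3 and 6.60, and 31.3 and 47.9 CPM. Both, like Nodal, were higher in heterozygous replicate 1 than in replicate 2. Pou5f1 was also the second nearest to Lefty1 (1.32). A list of 12 early epiblast genes that holds Pou5f1 summed to 2100 and 1521 CPM in these 2 libraries, 1571 to 1636 in wild-type and 1879 to 2034 in mutant libraries. Of its 11 tested genes 6 rose in mutants and 2 in heterozygotes, beside 17.1% and 6.03% of all tested genes. Tdgf1 was nearest to Pyy (0.33) and to Ankrd1 (0.38), which encodes a cardiac ankyrin repeat protein, at 10.2 and 0.825, 68.6 and 91.0, and 87.2 and 40.5 CPM. Lhx1 was nearest to Nr1h5 (0.39) and Npc1l1 (0.40), and Lefty2 to the endocytic receptor partner Amn (1.24) and the apolipoprotein gene Apom (1.26). Of the flatter members, Chrd was nearest to Naip5 (0.13) and Mfsd7a (0.16), Nog to Snap91 (0.07) and Meis3 (0.11), and Dkk1 to Mir3061 (0.02) and Foxr2 (0.08).

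Promoters were read for the 7 members that have an entry in the RefSeq promoter table (build GRCm38.p6), which leaves Nog, Lefty1 and Lefty2. The 250 bases before the annotated start were searched on both strands for 4 motifs: TAATCC, the core bound by Otx2 and Gsc, TAATTA, bound by many homeodomains including those of the LIM class, TGTNNATT, the Foxh1 core, and CAGAC, the SMAD box. TAATCC was in 0 of 7 and in 6.25% of all 32851 promoters. TAATTA was in 2 of 7, Cer1 and Tdgf1, and in 4.84% of all. TGTNNATT was in 1 of 7, Tdgf1, and in 10.9% of all, and CAGAC in 3 of 7, Cer1, Tdgf1 and Lhx1, and in 42.2% of all. Cer1, Tdgf1 and Lhx1 were higher in both mutant than in both wild-type heads. So were Chrd and Nodal, whose promoters hold none of the 4 motifs. The 3 promoters with a match are printed 5′ to 3′ on the gene's strand with the matches in capitals. They lie at chr9:110946159-110946408 (Tdgf1), chr4:82885152-82885401 (Cer1) and chr11:84525535-84525784 (Lhx1), all on the minus strand.
Tdgf1: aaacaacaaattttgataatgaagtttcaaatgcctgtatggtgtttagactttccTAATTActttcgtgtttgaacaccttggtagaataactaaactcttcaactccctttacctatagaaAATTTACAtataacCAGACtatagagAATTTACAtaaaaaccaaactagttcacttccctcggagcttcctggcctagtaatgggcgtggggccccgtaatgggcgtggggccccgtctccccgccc
Cer1: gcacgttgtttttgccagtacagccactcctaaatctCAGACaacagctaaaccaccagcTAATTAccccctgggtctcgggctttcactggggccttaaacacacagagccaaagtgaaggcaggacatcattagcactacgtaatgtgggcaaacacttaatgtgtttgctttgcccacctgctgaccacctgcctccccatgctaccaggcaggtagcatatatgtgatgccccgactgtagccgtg
Lhx1: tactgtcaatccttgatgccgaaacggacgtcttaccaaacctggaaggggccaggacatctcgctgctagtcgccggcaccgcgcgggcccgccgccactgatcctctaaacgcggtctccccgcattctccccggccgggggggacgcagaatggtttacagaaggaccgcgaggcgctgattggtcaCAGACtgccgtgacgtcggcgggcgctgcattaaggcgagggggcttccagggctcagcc
In Tdgf1 both Foxh1 cores are read as AATTTACA, the motif on the other strand. They begin 127 and 101 bases before the start, with the SMAD box between them at 113 bases, and no matches overlap. In Cer1 the SMAD box begins 213 and TAATTA 190 bases before the start, and in Lhx1 the SMAD box begins 60 bases before it. A match is a run of letters and shows no binding.

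The wider Nodal pathway was read from a list of 24 genes, of which 21 were tested. In mutant against wild type 6 rose and 3 fell, beside 17.1% and 13.6% of all tested genes, and the median log2 fold change was 0.18. Foxh1, the DNA-binding partner of Smad2 and Smad3, stood at 17.0 and 11.5 CPM in wild-type libraries, 103 and 51.2 in heterozygous and 119 in both mutant libraries, and rose by 3.06 (SE 0.37, adjusted p = 0.00384). Furin, which encodes a protease that matures Nodal, rose by 1.73 (SE 0.11) and Smad7, an inhibitory SMAD, by 1.60 (SE 0.18). The type II receptor gene Acvr2a fell by 0.50 on the log2 scale (SE 0.08, adjusted p = 0.00954). Foxh1, Furin and Smad7 also rose in heterozygous against wild type, as 3 of 21 genes, beside 6.03% of all tested genes. Their values there were 2.43, 1.20 and 0.93. Of the Nodal partners, Gdf1 and Gdf3 were at most 0.04 RPKM in every library and were not tested. Gdf1 overlaps Cers1 on the same strand and Upf1 on the opposite strand, so its low count cannot be read as absence.

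Other genes of the axial mesendoderm, node and notochord, 19 in number and all tested, gave 7 higher and 3 lower, with a median of 0.38. Of all tested genes 17.1% were higher and 13.6% lower. Sfrp5, a secreted Wnt antagonist of anterior endoderm, rose by 2.86 (SE 0.22, adjusted p = 0.00105), and Sox17, an endoderm factor, by 1.16 (SE 0.18, adjusted p = 0.00774). The lower genes were Otx2, Six3 and Cxcr4, the last by -0.46 (SE 0.08, adjusted p = 0.0119). Of the notochord genes Foxa2 (0.53, SE 0.13) and Noto were among the 7 that rose, and T, at 1.18 (SE 0.38, adjusted p = 0.0616), did not pass; differences between these genes were not tested. Otx2 and Six3 are in the anterior neural plate marker list too, whose sum was lowest in mutant libraries.

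**Figure D5:**
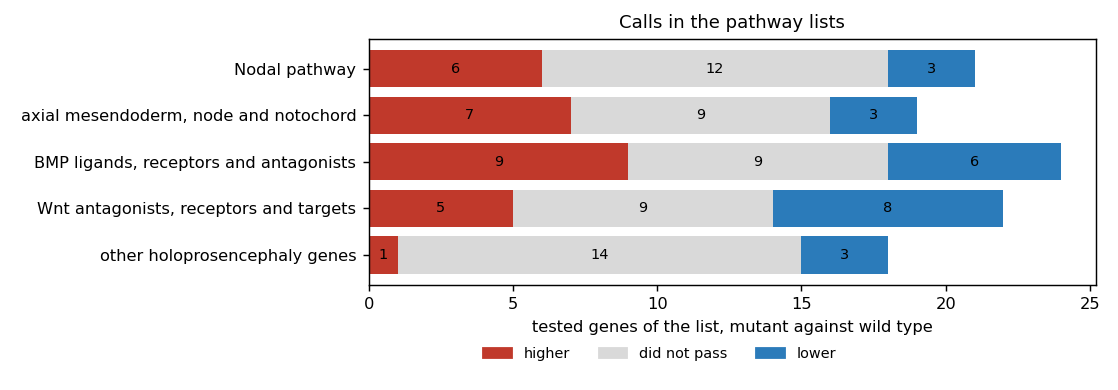
Number of tested genes that rose (red), fell (blue) or did not pass (grey) in mutant against wild type in 5 lists around the 10 genes. The Nodal list has 6 higher and 3 lower of 21, and the Wnt list 5 higher and 8 lower of 22. Of all tested genes 17.1% rose and 13.6% fell.

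Around the BMP antagonists, 24 ligands, receptors and inhibitors were tested in mutant against wild type, and 9 rose and 6 fell (median 0.08). Of all tested genes 17.1% rose and 13.6% fell. The ligand genes Bmp4 (2.07, SE 0.22), Bmp6 (2.71, SE 0.29) and Bmp7 (0.94, SE 0.11) rose, as did the inhibitory SMAD gene Smad6 (2.17, SE 0.18), with adjusted p from 0.00122 to 0.00369. Among the antagonists other than Chrd and Nog, Grem1, Fst, Twsg1 and Chrdl1 were among the 6 that fell. Around Dkk1, 22 Wnt antagonists, receptors and targets gave 5 higher and 8 lower (median -0.11), beside the same shares of all tested genes. The Dkk1 receptor gene Kremen1 fell (-0.53, SE 0.09, adjusted p = 0.00844), the Wnt co-receptor gene Lrp5 rose (0.67, SE 0.08, adjusted p = 0.004) and the Wnt target Axin2 fell (-0.64, SE 0.09, adjusted p = 0.00594). Dkk2, Dkk3 and Dkkl1, relatives of Dkk1, were among those that rose. Of 18 further genes tied to holoprosencephaly 1 rose, Foxh1, and 3 fell, beside 17.1% higher and 13.6% lower among all tested genes. The 3 were Six3, a forebrain homeobox gene (-2.33, SE 0.56, adjusted p = 0.0275), and the hedgehog co-receptor genes Boc (-0.51, SE 0.13, adjusted p = 0.0329) and Cdon (-0.59, SE 0.15, adjusted p = 0.0347). Under the neural progenitor scaling 5 of the 95 distinct list genes fell in place of 22. Over all 5 lists 47 of the 95 distinct genes passed in mutant against wild type, and 26, 27 and 30 did so without wild-type replicate 1, mutant replicate 1 and mutant replicate 2. Of all tested genes 30.6% passed in mutant against wild type with all libraries in the fit. Yolk sac, heart and trunk sums were higher in these mutant libraries, as given above, and their part was not tested.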

How the data were processed

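The authors deposited raw counts per gene symbol, 1 file a library, and 1 table. The deposited table holds RPKM per library, the authors' log2 fold change of mutant over wild type with mean log2 CPM, a score (the likelihood ratio), the p-value and its false discovery rate. Reads were trimmed and aligned to mm10, per the submitters' processing notes, which list Trim Galore 0.4.0, TopHat2 2.0.11, HTSeq 0.6.1p2 and edgeR 3.8.6; the annotation is not given in the sources used here. The 5 HTSeq summary lines were left out; 8.93% to 10.5% of read pairs lay in no feature. Count files were assigned by the title in their name.

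The main test was edgeR 4.0.16 under R 4.3.3 on the deposited counts: TMM, filterByExpr by genotype, glmQLFit and glmQLFTest over all 6 libraries with 3 residual degrees of freedom. The SE was taken from the fold change and its F statistic. Single-gene CPM used TMM sizes, while marker sums and read ratios used library totals; the intervals of ratios are Clopper-Pearson and cover counting error only. Limma 3.58.1 and DESeq2 1.42.0 were alternatives. The fit was tested on simulated data. Gene positions are those of GENCODE M21 (GRCm38, the assembly of mm10). The 10 genes and every list were chosen with earlier results of these data known. From each pathway list, up to 4 genes with the smallest p among those that passed in mutant against wild type were named; from all tested genes, the 2 nearest in course to each member. Other names (Gdf1, Gdf3, Thpo, T, Foxa2, Noto, Dkk2, Dkk3, Dkkl1, Fst, Twsg1, Chrdl1, Grem1, Pax8) were chosen after their values were seen, and 1 result on a list gene is not reported here.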

Additional observations from a re-analysis of the deposited data

How the results depend on the processing

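Each value was recomputed under 15 other settings and under 1 more chosen after seeing the data, the fit to mutant and wild-type libraries only. No paired analysis was possible because the labels give each library its own name and no number or litter that genotypes share; the replicate numbers used here only name libraries. Where 1 library was left out, the lone library of its genotype was assumed to vary like the others. Of the 10 genes, 2 passed in mutant against wild type; the count was 0 with the files as attached, 8 under the neural progenitor scaling, 5 in DESeq2, 5 in the likelihood ratio test, 1 in limma-voom, 4 in mutant and wild-type libraries only, and 1 to 4 when 1 library was left out. In heterozygous against wild type 1 passed; the count was 0 as attached, 2 under that scaling, 2 with no filter on low counts, 3 in DESeq2, 4 in the likelihood ratio test, 0 in limma-voom, 0 in limma on log2(RPKM + 1), and 0 to 3 with 1 library left out. In mutant against heterozygous 0 passed; the count was 2 under that scaling, 1 in DESeq2 and 1 in the likelihood ratio test. Of the list genes 47 passed in mutant against wild type, 0 as attached and 26 to 46 with 1 library left out (26 without wild-type replicate 1, 27 without mutant replicate 1, 30 without mutant replicate 2). The neural progenitor scaling moved the median of all genes by 0.66, 0.24 and 0.42 in the 3 comparisons. It gave 10554 genes higher and 436 lower in mutant against wild type (2594 and 2060 in the main analysis), 1921 and 23 in heterozygous against wild type (916 and 81), and 7417 and 199 in mutant against heterozygous (11 and 55). With the files as attached 0 genes passed in edgeR's quasi-likelihood test, and 318, 48 and 422 had an unadjusted p under 0.05.

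Over the 10 genes and 3 comparisons, 372 of 460 recomputed fold changes kept direction and side of the threshold, and 37 changed sign. As attached, log2 values turned to 0.044 for Gsc, -0.14 for Nog, -1.52 for Tdgf1 and -1.23 for Lefty2 in mutant against wild type, to 0.17 for Gsc, -0.14 for Nog and -0.60 for Lhx1 in heterozygous against wild type, and to -0.0013 for Nog and -0.13 for Nodal in mutant against heterozygous. Under the neural progenitor scaling they turned to 0.0076 for Gsc and 0.50 for Dkk1 in the first comparison, 0.095 for Gsc and 0.18 for Chrd in the second, and 0.050 for Dkk1, 0.23 for Tdgf1 and 0.12 for Lefty2 in the last. In mutant against heterozygous Lefty1 turned to 1.24 in limma-voom, 0.85 in limma on log2(RPKM + 0.1) and 0.019 on log2(RPKM + 1), and Lefty2 to 1.12, 0.98 and 0.47. With 1 library left out, heterozygous against wild type ranged from -0.55 to 0.39 for Gsc, -0.35 to 0.30 for Chrd, -0.11 to 0.74 for Nog, -0.033 to 2.77 for Cer1, -0.11 to 0.46 for Dkk1 and -0.22 to 10.24 for Nodal. Mutant against heterozygous ranged from -1.47 to 0.011 for Gsc, -0.18 to 3.45 for Cer1, -0.20 to 7.70 for Nodal, -0.99 to 0.27 for Tdgf1, -1.66 to 4.86 for Lefty1 and -1.24 to 3.67 for Lefty2, and Dkk1 in mutant against wild type from -0.44 to 0.045. Of the calls, Lhx1 in mutant against wild type was lost as attached only. Lefty2 there was also lost in limma-voom (adjusted p = 0.228) and in limma on log2(RPKM + 1) (0.114), and Lhx1 in heterozygous against wild type in the same fits (0.0912 and 0.0609). The cause of these changes was not tested. With 0 to 3 wild-type reads of Nodal, Lefty1 and Lefty2, counting limits their folds, and with 2 libraries a genotype the spread is estimated over few samples.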
